A study of Mus musculus with 4 samples.

Results

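Hes1, Id1, Id2 and Id3 are 4 genes of the 13742 in a table of single-cell counts from mouse bone marrow haematopoietic stem cells (HSCs). They were chosen by name, as the rows of these genes, and all 4 were present. The cells came from the marrow of wild-type mice 8 weeks old (strain not stated in the labels). They were sorted singly as c-Kit+, Sca-1+, lineage-negative, CD150+, CD48-, CD201+ (EPCR+) cells from CD27- and CD27+ gates, a phenotype called ESLAM SK, and profiled by STRT-seq, a single-cell method in which each cell receives a barcode in the oligo-dT primer and 3′ ends are sequenced. Each library's labels list the CD27- and the CD27+ gate together, so the libraries form 1 group of 4, and the sources used here do not give the gate of a cell. No cell was assigned to a gate, no contrast between conditions exists, and every value below is a description without a test. Whether the libraries came from separate mice is not stated, so the spread between them may be technical.

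Hes1 encodes a basic helix-loop-helix (bHLH) repressor that Notch signalling switches on through RBPJ, and that other signals also induce within a short time. The Id genes encode helix-loop-helix proteins without a DNA-binding region. They pair with E proteins and keep them off DNA, and BMP signalling through Smads is their best known inducer. In HSCs both families are known as regulators of quiescence, self-renewal and the choice of lineage.

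Of 297 cells, 292 had at least 10000 counts and 1000 detected genes, with 74, 75, 71 and 72 cells in libraries 1 to 4. The counts of these cells summed to 7410956, 8090683, 5250569 and 11207442 per library. All 10 HSC markers were detected, with Procr (the CD201 antigen) at 296 ± 47.8 CPM (counts per 1000000 counts, SD, n = 4), and Cd48, an antigen selected against in the sort, had a count in 2 of 292 cells. In 2 libraries a run of consecutively numbered cells resembled each other more than the rest of their library, with 8 cells in library 2 (numbers 26 to 33) and 7 in library 4 (numbers 10 to 16). Libraries also share cell numbers, of which 26 occur in all 4 libraries. Barcode sequences were not used here, so cells that libraries might share by barcode were not counted.

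Hes1 was the most abundant of the 4 genes and Id3 the least. Hes1 (ENSMUSG00000022528.8, 16:30064384-30067796, plus strand, GRCm38) reached 483, 400, 237 and 294 CPM in libraries 1 to 4. Id1 (ENSMUSG00000042745.9, 2:152736251-152737410, plus strand) reached 131, 110, 22.7 and 37.4 CPM. Both genes stood higher in libraries 1 and 2 than in libraries 3 and 4. This pairing was read from the values and not from the labels, and how many other genes share it was not counted. Id2 (ENSMUSG00000020644.9, 12:25093799-25097140, minus strand) reached 34.5, 40.9, 34.7 and 29.98 CPM, close to level across libraries. Id3 (ENSMUSG00000007872.3, 4:136143497-136145755, plus strand) stood at 12.8 CPM in library 1 and 1.14 CPM in library 3, and had no count in libraries 2 and 4. A count of 0 there allows up to 0.371 CPM in library 2 and 0.268 CPM in library 4, taking 3 counts as the limit and counting error only. All 4 genes are protein-coding, and no annotated gene overlaps any of them. Id4, the remaining Id gene, had 3.10 and 3.96 CPM in libraries 1 and 2 and no count in libraries 3 and 4, from 3 cells in all, and overlaps an annotated antisense gene.

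Means over libraries were 353 ± 110 CPM for Hes1, 75.2 ± 53.2 for Id1, 35.02 ± 4.49 for Id2 and 3.49 ± 6.24 for Id3 (SD, n = 4). The order Hes1, then Id1 and Id2, then Id3 held in every library, and only Id1 and Id2, neighbours in that order, overlapped in their CPM. Divided by exon length, the levels were 173 ± 53.8 CPM per kilobase for Hes1, 64.8 ± 45.9 for Id1, 14.4 ± 1.84 for Id2 and 1.95 ± 3.49 for Id3. On that scale the lowest Id1 library, 19.5 CPM per kilobase, lay above the highest Id2 library, 16.8. The protocol enriches 3′ ends, so a division by length may not put the genes on an equal footing.

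The libraries differed more in Hes1 and Id1 than in most genes of like level. Hes1 was 2.04-fold higher in library 1 than in library 3, a coefficient of variation (CV) over libraries of 31.0%. The median CV of the 773 genes within 2-fold of its level was 11.8%, and 11 of the 772 others had a CV at least as high. Id1 was 5.78-fold higher in library 1 than in library 3, a CV of 70.8%, against a median of 20.96% over 3487 genes within 2-fold of its level, where 13 of 3486 others reached that CV. Id2 varied little, with a CV of 12.8% against a median of 29.3% over 4267 genes of like level, and 3910 of 4266 others varied at least as much. Few cells carry much of the signal, as the following counts show, and the part of this in the differences between libraries was not tested.

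**Figure D1:**
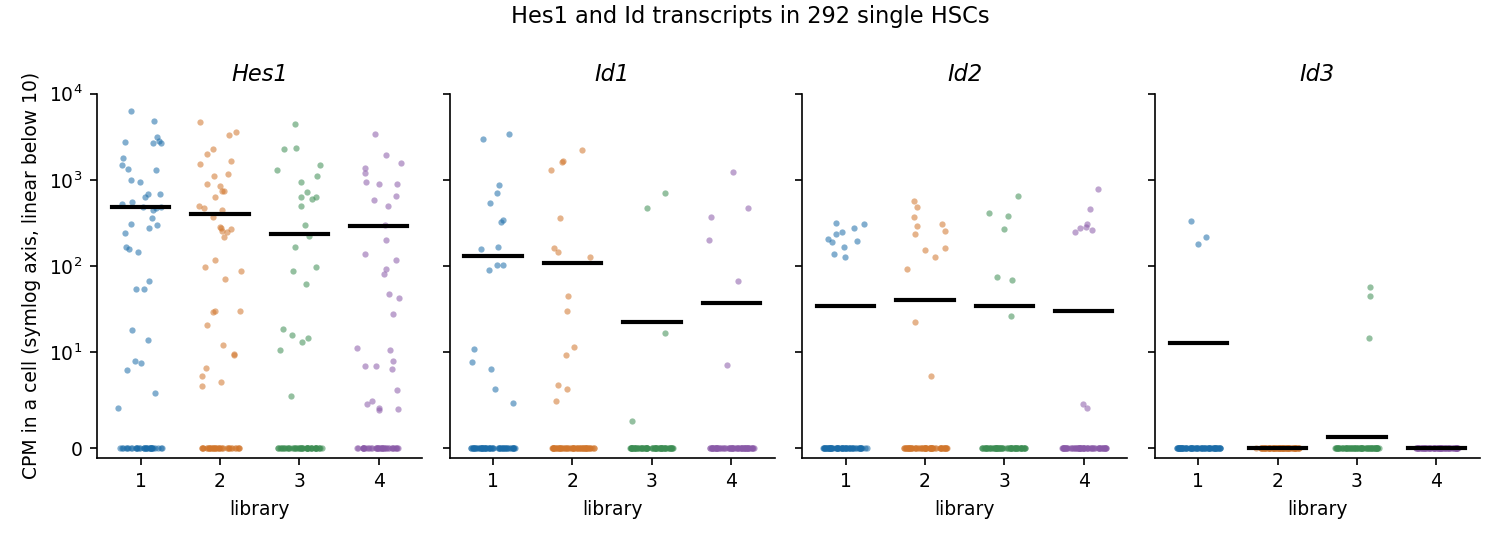
CPM of Hes1, Id1, Id2 and Id3 (panels) in each of 292 cells (points) by library (x axis); the y axis is symlog, linear below 10, and the black bar is the CPM of all cells of the library together. Of the 292 cells, 135 lie above 0 for Hes1, 42 for Id1, 40 for Id2 and 6 for Id3, and 31 pass 1000 CPM for Hes1 and 7 for Id1.

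Within a library Hes1 was patchy. Cells with any Hes1 count numbered 40 of 74 in library 1, 39 of 75 in library 2, 24 of 71 in library 3 and 32 of 72 in library 4, which is 135 of 292 cells (46.2%). In 31 of the 135 cells the count was exactly 1. At the other end, 31 cells passed 1000 CPM, namely 11, 9, 6 and 5 per library, and the highest cell reached 6269 CPM. The 10 cells with the most Hes1 held 43.2% of all its counts. Among cells with a count, the median was 477, 274, 398 and 85.9 CPM in libraries 1 to 4, lowest in library 4, which was also the most deeply sequenced.

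Id1 was found in fewer cells and Id2 was more even. Id1 had a count in 17, 15, 4 and 6 cells of libraries 1 to 4, 42 in all, of which 15 had exactly 1 count and 7 passed 1000 CPM. The 10 cells with the most Id1 held 80.4% of its counts, with a highest cell of 3384 CPM. Id2 had a count in 11, 13, 7 and 9 cells, 40 in all, and 35 of them had at least 3 counts. Its 10 highest cells held 53.9% of its counts and none passed 1000 CPM, the highest being 788 CPM. Id3 had a count in 3 cells of library 1 and 3 of library 3, none above 331 CPM.

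To set depth equal, 30000 counts were drawn at random from every cell, which left 72, 70, 64 and 70 cells and dropped 16. Hes1 then had a count in 47.2% of cells in library 1 (95% exact Clopper-Pearson interval 35.3 to 59.3), 41.4% in library 2 (29.8 to 53.8), 28.1% in library 3 (17.6 to 40.8) and 32.9% in library 4 (22.1 to 45.1). Id1 had a count in 16.7% (8.92 to 27.3), 12.9% (6.05 to 23.0), 3.13% (0.381 to 10.8) and 7.14% (2.36 to 15.9). In these shares, drawn from the same cells as the CPM, libraries 1 and 2 were above libraries 3 and 4 for both genes. The intervals of all 4 libraries overlapped. Id2 had a count in 15.3%, 17.1%, 7.81% and 10% of cells, in the same order of library pairs, unlike its CPM. Id3 had a count in 4.17% and 3.13% of cells of libraries 1 and 3, and in 0 of 70 cells of libraries 2 and 4 each. That allows a share of up to 4.29%, taking 3 cells as the limit, or 5.13% by the exact interval. Means over libraries were 37.4% ± 8.55 for Hes1, 9.95% ± 6.00 for Id1, 12.6% ± 4.38 for Id2 and 1.82% ± 2.15 for Id3 (SD, n = 4). Without thinning the Hes1 share was 46.1% ± 9.17. As a gauge of background, Cd48, which the sorted cells should lack, had a count in 0.685% of all kept cells before thinning.

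**Figure D2:**
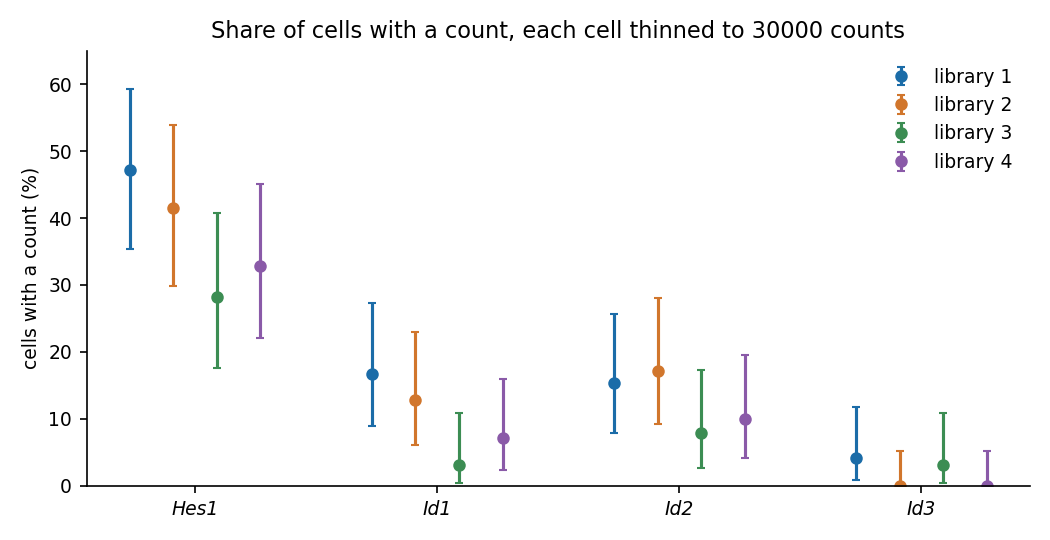
Percentage of cells with a count of each gene (x axis) after thinning each cell to 30000 counts, by library (colour); bars are 95% exact binomial intervals and cover counting error only. Hes1 lies between 28.1% and 47.2%, Id1 and Id2 at or below 17.1%, and Id3 at or below 4.17%.

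The runs of alike cells added little to these values. Of their 15 cells, 4 had a Hes1 count, 2 an Id2 count and none an Id1 or Id3 count. Shares also differed along the numbering of cells within a library. The sources used here do not say what the numbering stands for. In sets of consecutive numbers with at least 8 cells, of which there were 17, the Hes1 share after thinning ran between 12.5% and 75%. In library 1 it was 75% in cells 51 to 66 and 12.5% in cells 25 to 33. In library 2 it was 60.0% in cells 35 to 50 and 20.0% in cells 67 to 82.

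Hes1 and Id1 were found in the same cells more often than their shares alone give. After thinning, 145 of 276 cells (52.5%) had no count of any of the 4 genes, 98 had 1 gene, 27 had 2, 4 had 3 and 2 had all 4. Hes1 alone marked 72 cells and Id2 alone 17. Of 28 cells with Id1, 20 also had Hes1 (71.4%), which is 19.2% of the 104 cells with Hes1. The shares within each library give 11.6 such cells if unrelated, a ratio of 1.72. The count against that number was 10 against 5.67 in library 1, 7 against 3.73 in library 2, 0 against 0.563 in library 3 and 3 against 1.64 in library 4. The excess was therefore seen in libraries 1, 2 and 4, and library 3 held only 2 cells with Id1.

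The average level of each gene, zeros included, was higher in cells with the other gene in the same libraries. These averages use the same thinned cells as the co-detection, so they are not separate from it. Id1 averaged 275, 285, 0 and 103 CPM in cells with Hes1 of libraries 1 to 4, against 13.2, 4.88, 22.5 and 8.51 CPM in cells without Hes1. Hes1 averaged 1581, 1304, 0 and 633 CPM in cells with Id1, against 350, 262, 281 and 167 CPM in cells without Id1. Spearman rho between Hes1 and Id1 across cells was 0.44, 0.38, -0.11 and 0.20 in libraries 1 to 4, a mean of 0.23 ± 0.25 (SD, n = 4 libraries of 64 to 72 cells). The mean was 0.14 with CPM of the deposited counts and 0.09 with the summed immediate early level, described later, held constant. Cells of a library share its preparation, and the many zeros cap such a value, so rho is given as a description only.

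Id2 did not follow the pair to that extent. Hes1 and Id2 shared 17 cells against 13.9 if unrelated (ratio 1.23), with a mean rho of 0.09 ± 0.14. Id1 and Id2 shared 6 cells against 4.03 (ratio 1.49), with rho of 0.32 in library 1 and -0.05, -0.05 and -0.09 in libraries 2 to 4. Library 1 held 5 of the 6 shared cells, and without it the ratio was 0.455. After thinning, all 3 cells with Id3 in library 1 also had Hes1 and Id1, and neither of the 2 in library 3 had any of the other genes. Before thinning, 1 of these 2 had Hes1 at 14.7 CPM.

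Genes whose level followed Hes1 across cells were mostly immediate early genes, a class transcribed within minutes of a stimulus without new protein synthesis, and also after tissue dissociation. Every gene with a count in at least 20% of thinned cells was ranked by its mean rho with Hes1. A gene was counted where the mean rho was 0.2 or more in size and its sign was the same in 4 of 4 libraries. This gave 28 positive genes of 4538 (0.617%) and 1 negative (0.022%), beside a median over all genes of 0.00. The 6 highest were Klf2 (0.46 ± 0.09), Klf6 (0.44 ± 0.07), Ppp1r15a (0.42 ± 0.13), Ier2 (0.42 ± 0.06), Nr4a1 (0.41 ± 0.08) and Dusp1 (0.40 ± 0.14). Klf2 and Klf6 are zinc-finger transcription factors, Nr4a1 an orphan nuclear receptor, Dusp1 a phosphatase of MAP kinases, and Ppp1r15a (GADD34) directs a phosphatase to eIF2 alpha in the stress response. Klf2 had rho of 0.59, 0.46, 0.40 and 0.40 in libraries 1 to 4, the highest in library 1. The lowest genes were Adssl1 (-0.21 ± 0.12), Luc7l3 (-0.19 ± 0.07) and Man1a2 (-0.19 ± 0.11), of which Adssl1 is the 1 negative gene counted.

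In the list of 32 immediate early and stress genes, 18 were detected often enough, and 14 of the 18 were counted with Hes1, at a median rho of 0.28. The 14 were Fos, Fosb, Jun, Junb, Egr1, Ier2, Dusp1, Nr4a1, Btg2, Zfp36, Klf2, Klf4, Klf6 and Rhob. Outside the rule lay Dnajb1 (0.20, with a negative rho in library 3), Ier3 (0.19), Gem (0.01) and Nfkbia (0.01). Gem, a small GTPase gene, and Nfkbia, the gene of an NF-kB inhibitor, thus lay near 0 within a list whose other members were mostly positive. When the summed level of the list was held constant by partial correlation, 2 of the 18 and 7 of all genes were counted, a sum that includes each listed gene itself.

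The size of the difference shows in cells split by a Hes1 count. The 32 genes summed to 28727, 28194, 24450 and 24859 CPM in cells with Hes1 of libraries 1 to 4, against 13982, 14924, 13217 and 15911 CPM in cells without Hes1. The libraries did not overlap, and the means were 26558 ± 2214 CPM with Hes1 and 14509 ± 1167 CPM without (SD, n = 4), a 1.83-fold difference. Klf2 averaged 906 ± 124 CPM in cells with Hes1 and 261 ± 32.1 CPM in cells without, higher in 4 of 4 libraries. Klf6 averaged 1778 ± 240 CPM with Hes1 and 752 ± 75.6 CPM without. Fos, the partner of Jun in the AP-1 factor, averaged 6497 ± 1141 CPM with Hes1 and 3397 ± 458 CPM without. Without the runs of alike cells, of which 12 cells were thinned and averaged 3481 CPM of this list, the sum was 26970 ± 2252 CPM with Hes1 and 15310 ± 2022 CPM without. Cells with Hes1 had a median of 113832 ± 39963 counts before thinning, against 97693 ± 26314 in cells without, and 2667 ± 108 genes detected after thinning, against 2586 ± 99.4, both higher in 4 of 4 libraries. The part of depth or breadth in the result was not tested.

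**Figure D3:**
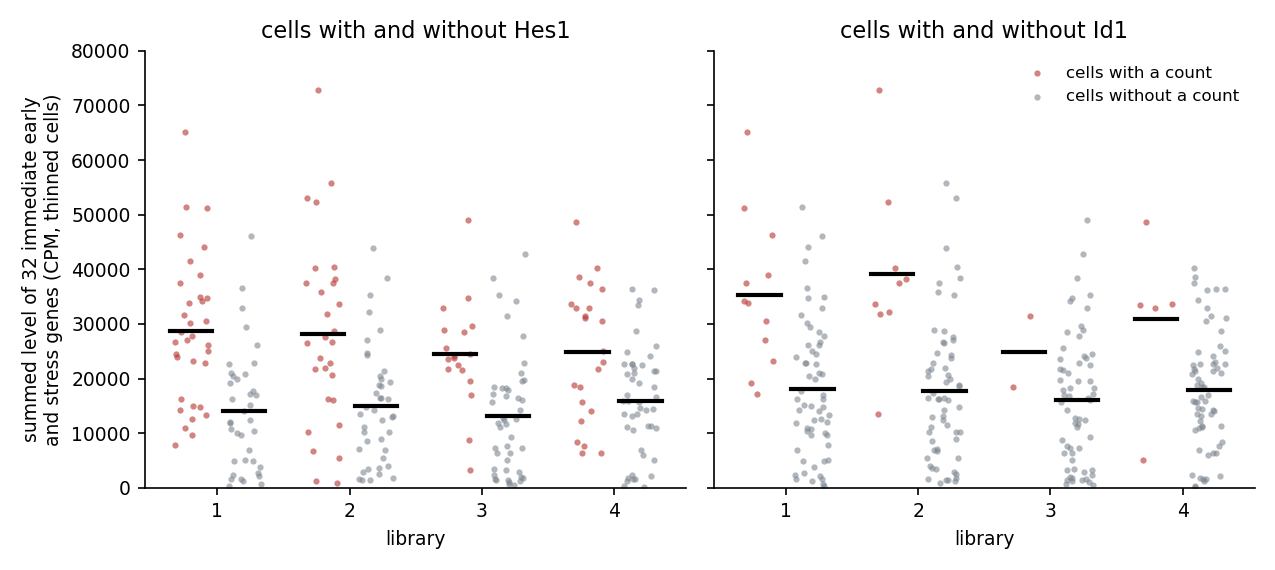
Summed level of 32 immediate early and stress genes (CPM of cells thinned to 30000 counts) in each cell with a count of Hes1 (left panel) or Id1 (right panel), drawn left, and each cell without one, drawn right, by library; black bars are means. The mean is higher in cells with the gene in 4 of 4 libraries, and the single cells overlap widely.

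Id1 shared part of this pattern at lower rho. Of 4539 genes, 21 were counted as positive (0.463%) and 0 as negative. The highest were Fos (0.29 ± 0.14), Atf4 (0.29 ± 0.14), a transcription factor of the integrated stress response, Nfkbiz (0.27 ± 0.07), Map1lc3a (0.27 ± 0.13), Dusp1 (0.27 ± 0.14) and Ier2 (0.26 ± 0.10). The lowest were Car2 (-0.19 ± 0.13), Acap1 (-0.17 ± 0.09) and Inpp5b (-0.17 ± 0.05). Of the immediate early list, 8 of 18 were counted, at a median rho of 0.20. That count was 0 with the deposited counts scaled to CPM in place of thinned cells, 4 with another random draw, and 5 without library 1. Across the whole scan 11 genes were counted with both Hes1 and Id1, which is 39.3% of the Hes1 genes and 52.4% of the Id1 genes.

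The difference between cells with and without Id1 was large in the sum, if on few cells. The immediate early list summed to 35347, 39137, 24883 and 30813 CPM in cells with Id1 of libraries 1 to 4, from 12, 9, 2 and 5 cells, against 18064, 17660, 16102 and 17931 CPM in cells without Id1. The means were 32545 ± 6138 CPM with Id1 and 17439 ± 907 CPM without, higher in 4 of 4 libraries. Of the 28 cells with Id1, 20 also had Hes1, so this contrast is not separate from that of Hes1. The sum in cells with Id1 and no Hes1 was not compared. Cells with Id1 also had more genes detected after thinning, 2839 ± 231 against 2599 ± 90.8 in cells without, in 4 of 4 libraries, and the part of this in the result was not tested.

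Id2 had no such company. It had 2 positive genes of 4539 (0.0441%), Fam98b (0.23 ± 0.23) and Ccdc90b (0.21 ± 0.06), and 1 negative gene (0.022%), Abhd16a (-0.20 ± 0.05). None of the 18 immediate early genes was counted, at a median rho of 0.05. The list summed to 22116 ± 5187 CPM in cells with Id2 and 18726 ± 1979 CPM in cells without, higher in 2 of 4 libraries. Akap8 (0.20), Aimp1 (0.19), Bccip (0.19) and Tlcd2 (0.18) came next among the positive genes, and Anapc1 (-0.19) and Eif3h (-0.18) among the negative. Id3 was too rare for such a ranking.

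**Figure D4:**
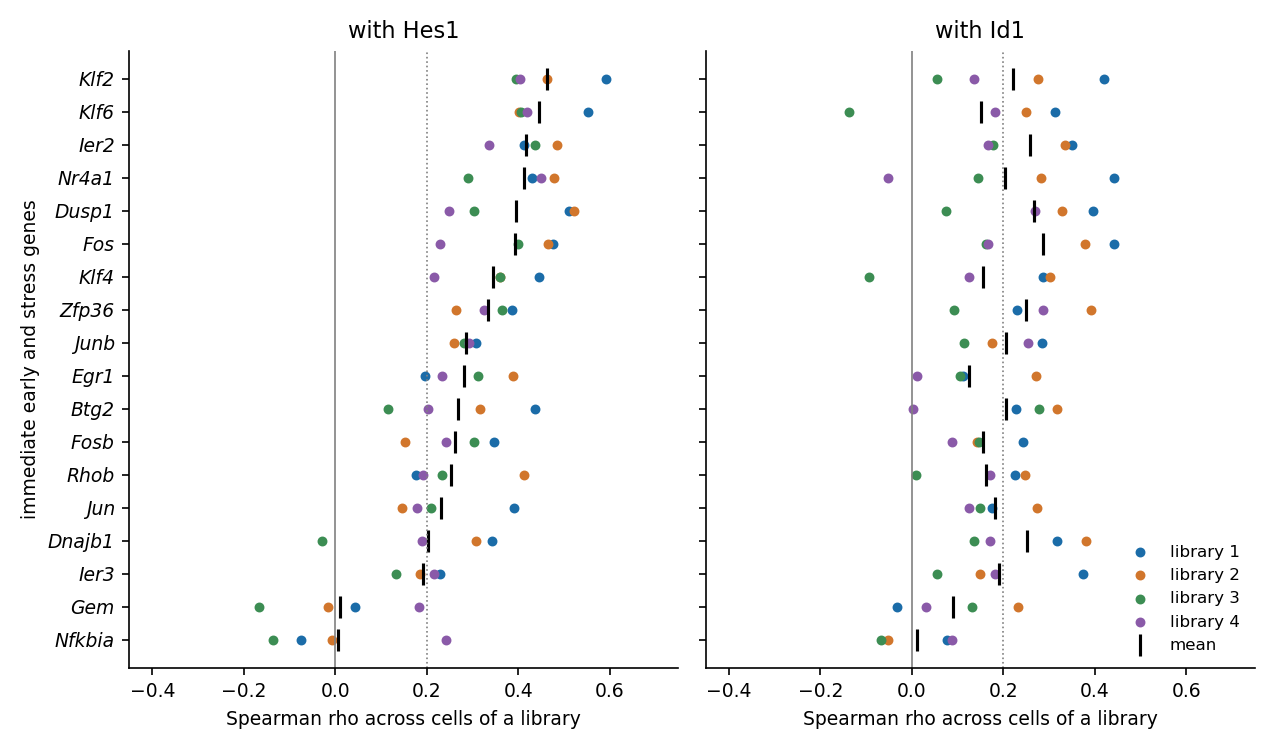
Spearman rho across the cells of a library (x axis) of 18 immediate early and stress genes (rows) with Hes1 (left) and Id1 (right); coloured points are libraries, black ticks are means, and the dotted line is the 0.2 threshold. Klf2 leads for Hes1 with a mean of 0.46, most means are lower for Id1, and Gem and Nfkbia average 0.01 for Hes1.

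A pair of sequences is shown to let the reader see the promoters of genes that moved with Hes1. The promoter table used (RefSeq, GRCm38.p6) held 12 of the 14 immediate early genes counted with Hes1, and Hes1, Id1, Egr1 and Ier2 were not matched. The cAMP response element half-site, TGACG or CGTCA on the other strand, occurs in the 250 bases before the start of 8 of the 12 (Btg2, Dusp1, Fos, Fosb, Junb, Klf2, Klf4 and Nr4a1). It occurs in 29.4% of 4631 such windows of the genes ranked above. The full element, TGACGTCA, which contains the half-site, occurs in 2 of the 12 (Btg2 and Dusp1) and in 2.89% of the windows. The E-box letters CANNTG occur in 8 of the 12 and in 56.1% of windows, and the RBPJ core TGGGAA in 3 of the 12 and in 20.5%. Each was searched on both strands. A match is a string of letters and not a bound site. In the windows of Fos and Nr4a1, which were chosen because no annotated exon lies in them, capitals mark each half-site. The window of Fos has 2, starting at -129 and -66, and that of Nr4a1 has 4, starting at -233, -213, -69 and -40, counted from the start of the gene.
Fos, chr12:85473640-85473889, plus strand: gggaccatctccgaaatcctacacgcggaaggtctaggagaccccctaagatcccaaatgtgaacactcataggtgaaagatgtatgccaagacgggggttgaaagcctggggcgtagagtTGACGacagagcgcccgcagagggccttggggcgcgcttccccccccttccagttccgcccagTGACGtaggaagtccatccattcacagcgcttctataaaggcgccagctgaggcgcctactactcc
Nr4a1, chr15:101266596-101266845, plus strand: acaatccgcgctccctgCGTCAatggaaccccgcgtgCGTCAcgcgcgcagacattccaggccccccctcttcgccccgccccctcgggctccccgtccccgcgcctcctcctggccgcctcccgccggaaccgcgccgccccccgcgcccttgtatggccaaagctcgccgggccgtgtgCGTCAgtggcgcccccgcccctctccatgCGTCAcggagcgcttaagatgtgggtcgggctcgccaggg

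Receptors and ligands of the Notch pathway, the best known inducer of Hes1, were present at low levels. The 9 receptors and ligands summed to 49.7 ± 18.1 CPM, led by the receptor Notch2 (15.5 ± 5.91 CPM) and the ligands Jag2 (10.1 ± 9.64) and Dll4 (8.82 ± 7.22). None of the 9 was found in enough cells to be ranked. In thinned cells their sum was 58.7 ± 34.8 CPM with Hes1 and 37.8 ± 23.6 CPM without, higher in 2 of 4 libraries. The processing and nuclear factors summed to 1146 ± 34.6 CPM, led by Mfng (271 ± 29.2), a glycosyltransferase that modifies Notch, Dtx3 (207 ± 19.1) and Psenen (133 ± 19.3), a subunit of the gamma-secretase that releases the Notch intracellular part. None of 8 ranked members was counted with Hes1, beside 0.617% of all genes, and Rfng (0.21 ± 0.12), a sister enzyme of Mfng, was counted with Id1, beside 0.463%. Lists of this size are too short to be told from those shares, here and in the lists that follow. This group summed to 1090 ± 60.2 CPM in cells with Hes1 and 1152 ± 43.7 CPM in cells without, lower with Hes1 in 4 of 4 libraries. Rbpj, the DNA-binding factor of the pathway, named here outside the rule for named genes, stood at 34.9 ± 10.6 CPM.

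Relatives of Hes1, and the Tle co-repressor genes listed with them, were scarcer than Hes1 itself. Aes, listed with the Tle genes, reached 119 ± 28.3 CPM, and Hes6, which counters Hes1 in other tissues, 82.4 ± 25.4 CPM. Tle2, a Groucho co-repressor that Hes proteins recruit, reached 52.9 ± 18.3 CPM. Hes5 and Hey1, other Notch targets named outside the rule, stood at 7.08 ± 4.63 and 0.476 ± 0.952 CPM. None of the 4 ranked members of this list was counted with Hes1, Id1 or Id2, beside positive shares of 0.617%, 0.463% and 0.0441% over all genes.

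Most receptors upstream of the Id genes were found in too few cells to be ranked. Of the BMP and TGF-beta ligands and receptors, the endothelial and stem cell coreceptor Eng reached 257 ± 18.7 CPM, the type II BMP receptor Bmpr2 29.4 ± 7.74 and the TGF-beta receptor Tgfbr2 21.5 ± 2.11. Bmpr1a, a type I BMP receptor named outside the rule, had a count in 1 cell. Among the Smads and their regulators Tgif1 (91.9 ± 19.0 CPM), Ski (48.7 ± 15.1) and Smad2 (45.2 ± 6.13) were highest. The BMP-responsive Smad1 and Smad5, named outside the rule, stood at 27.6 ± 8.40 and 36.9 ± 14.04 CPM. Of the ligands and receptors only Eng was ranked, and of the Smads and regulators only Smad2 and Tgif1, and none was counted with Hes1, Id1 or Id2, beside the same shares over all genes.

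The list of E proteins, which Id proteins pair with, and of partner factors was led by genes other than the E proteins. Lmo2 (868 ± 132 CPM), a bridging factor of bHLH complexes, Lyl1 (384 ± 56.0) and Myc (282 ± 63.5), a bHLH factor that pairs with Max, led the list of E proteins and partner factors. The E proteins themselves, named outside the rule, stood at 150 ± 34.4 CPM for Tcf4, 44.5 ± 14.4 for Tcf12 and 42.7 ± 15.8 for Tcf3. None of the 12 ranked members was counted with Hes1, Id1 or Id2, which is near the positive shares of 0.617%, 0.463% and 0.0441% over all genes. Myc came nearest, with a mean rho of 0.18 ± 0.06 with Hes1.

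**Figure D5:**
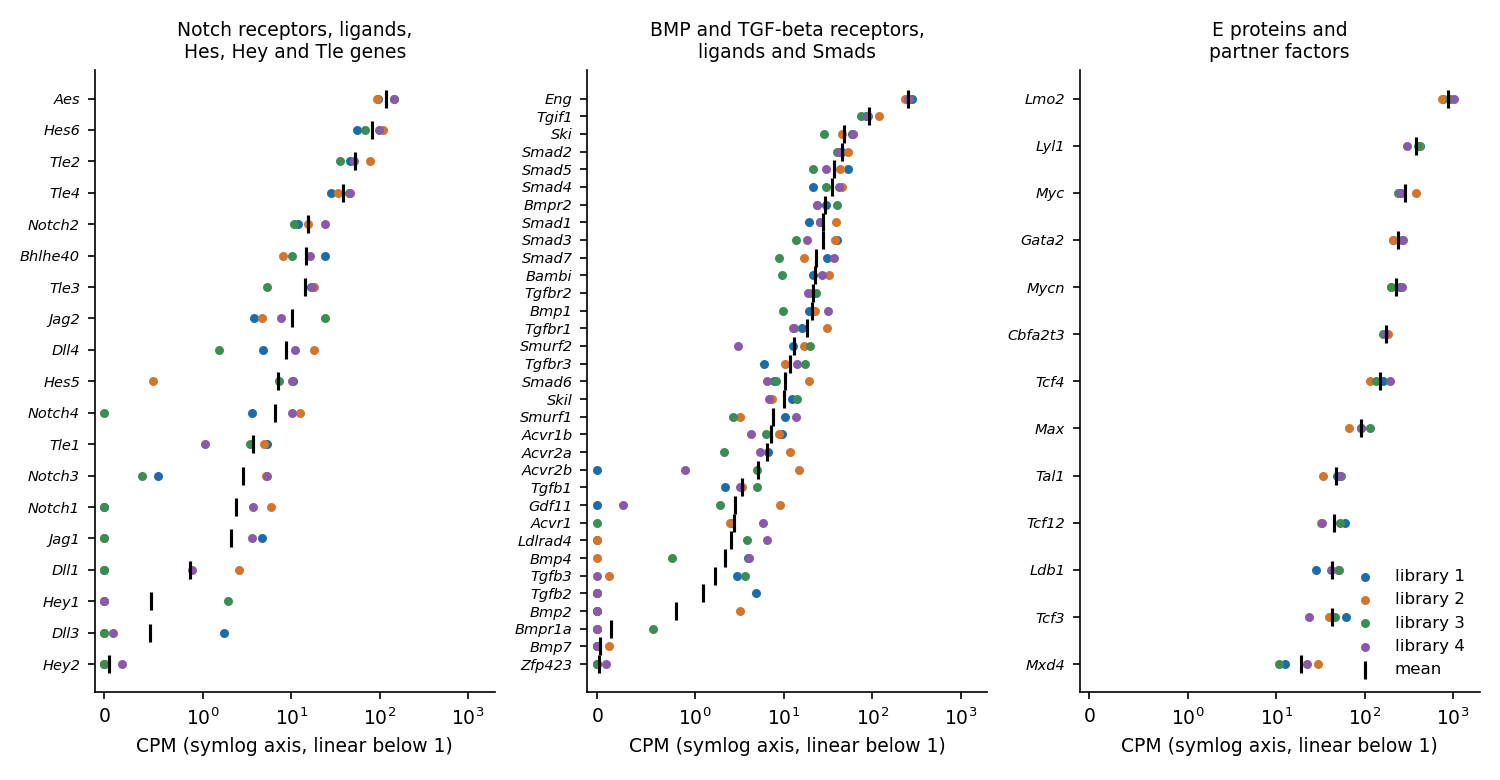
CPM per library (coloured points) and mean (black ticks) of Notch receptors and ligands with Hes, Hey and Tle genes, of BMP and TGF-beta genes with Smads, and of E proteins with their partners; the x axis is symlog, linear below 1. Notch2 leads the Notch receptors and ligands at 15.5 CPM, Eng leads the second panel at 257 CPM, and Lmo2 leads the third at 868 CPM.

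Stem cell genes stood at like levels in cells with and without Hes1. The HSC identity list summed to 10173 ± 640 CPM with Hes1 and 10277 ± 730 CPM without, and none of 17 ranked members was counted with Hes1, near the share of 0.617% over all genes. Ctnnal1 was the only member of the 17 counted with Id1 (0.21 ± 0.05), beside 0.463% of all genes, and the list is too short to be told from that share. The list of quiescence genes and CDK inhibitors summed to 5028 ± 173 CPM with Hes1 and 4021 ± 104 CPM without. It was higher with Hes1 in 4 of 4 libraries. In this list 1 of 7 ranked members was counted with Hes1, beside 0.617% of all genes. That member was Egr1, which is also in the immediate early list. The sum includes Egr1, and the sum without Egr1 was not computed. No ranked cell cycle gene (9) or lymphoid and multipotent progenitor gene (7) was counted with any of the 3 genes, which is again near those shares.

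Markers of other cell types were checked beside Hes1 and Id1, since endothelial and stromal cells express Hes1 and Id genes at high levels. Of 9 endothelial markers in the table, all 9 had a count, but Cdh5 and Plvap were found in 2 cells each and Flt1 in 1, while Egfl7, Tek, Emcn and Pecam1, which HSCs also express, were found in 191, 110, 110 and 92. The endothelial sum was 554 ± 197 CPM with Hes1, between 343 and 735, and 507 ± 60.8 CPM without, between 418 and 555, higher in 2 of 4 libraries. Kdr, a receptor of vascular endothelial growth factor, averaged 36.04 ± 12.8 CPM with Hes1 and 17.0 ± 12.1 CPM without, higher in 4 of 4 libraries. It had a count in only 11 cells with Hes1 and 13 without. Pecam1 averaged 64.4 ± 38.3 CPM with Hes1 and 64.0 ± 15.7 CPM without, higher in 2 of 4 libraries. Tek averaged 39.9 ± 20.4 CPM with Hes1 and 57.2 ± 33.1 CPM without, also higher in 2 of 4. Both cells with Cdh5, the vascular cadherin, were in library 1 and had Hes1 and Id1 counts. The 7 stromal markers summed to 54.9 ± 32.05 CPM with Hes1 (10.3 to 79.6) and 20.3 ± 14.5 CPM without (0.813 to 31.6). The 5 T and NK cell markers summed to 103 ± 55.3 CPM with Hes1 (40.7 to 162) and 38.3 ± 26.4 CPM without (4.96 to 65.04). Both were higher in 4 of 4 libraries. They came from 25 and 30 of the 104 cells with Hes1, and 24 and 22 of the 172 without. The megakaryocyte sum was 272 ± 54.3 CPM with Hes1 and 302 ± 39.2 CPM without, and the B cell sum 97.8 ± 27.0 and 114 ± 15.6. The erythroid sum was 234 ± 73.2 and 224 ± 61.6 CPM, and these sums were each higher with Hes1 in 1 of 4 libraries. The macrophage sum was 24.7 ± 11.3 and 20.7 ± 17.9 CPM, higher in 2. With Id1, the endothelial sum was 627 ± 421 CPM (300.0 to 1200) and 523 ± 93.0 CPM without (401 to 616). The stromal sum was 101 ± 120 CPM with Id1 (3.70 to 250) and 30.2 ± 18.7 CPM without (4.92 to 48.9), and the 2 macrophage markers summed to 37.7 ± 36.03 CPM with Id1 (0 to 70.4) and 22.1 ± 10.4 CPM without (9.29 to 32.3). Each of these 3 sums was higher with Id1 in 2 of 4 libraries, and the T and NK cell sum, 44.9 ± 71.4 CPM with Id1 (0 to 150.0) and 65.3 ± 40.9 CPM without (30.3 to 116), was higher in 1. The megakaryocyte sum was 273 ± 63.4 CPM with Id1 and 296 ± 35.3 CPM without, and the erythroid sum 216 ± 82.2 and 221 ± 50.3. The B cell sum was 98.1 ± 29.0 CPM with Id1 and 108 ± 6.72 CPM without. In that order, these were higher with Id1 in 3, 3 and 2 of 4 libraries. The part of these markers in the Hes1 and Id1 results was not tested.

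Cd27, the gene of the antigen used for the gates, had no steady relation to Hes1. Its rho with Hes1 was -0.50, -0.08, 0.32 and -0.05 in libraries 1 to 4, a mean of -0.08 ± 0.33. Cd27 averaged 72.5, 209, 391 and 219 CPM in cells with Hes1, against 301, 213, 119 and 184 CPM in cells without Hes1. The direction was thus opposite in libraries 1 and 3 and close to even in libraries 2 and 4. With Id1 its rho was -0.15, -0.20, 0.06 and -0.02 in libraries 1 to 4, a mean of -0.08 ± 0.12. Cd27 averaged 94.4, 74.1, 150 and 173 CPM in cells with Id1, against 213, 232, 197 and 197 CPM in cells without Id1. This was lower with Id1 in 4 of 4 libraries, but from only 12, 9, 2 and 5 cells with Id1, and the sign of rho was not the same in all libraries. Transcript is not the surface antigen, and these values say nothing of a cell's gate.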

How the data were processed

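The deposited table holds raw counts per gene and cell, with no normalization. Per the submitters' processing notes, the authors used the GRCm38 build, with Trimmomatic 0.36, HTSeq 0.9.1 and HISAT2 2.1.0. No source says whether reads were collapsed to molecules. PCR copies may thus be among the counts, and intervals cover counting error only.

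Cells were placed in libraries by name. Cells with at least 10000 counts and 1000 genes were kept (292 of 297, totals 10653 to 346876). No kept cell passed 4.58% mitochondrial counts. No doublet caller was run. Levels are CPM of counts summed per library. Shares, co-detection and Spearman rho used cells thinned to 30000 counts (seed 1), leaving out 16. Numbers expected together are sums over libraries of the product of the 2 shares and the cells. Genes and promoters came from GENCODE M21 and RefSeq. Python 3.11.15, numpy 2.4.6, pandas 2.3.3 and scipy 1.17.1 were used, with edgeR 4.0.16 for TMM scaling as an alternative.

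The members and lists were chosen with earlier results of these data known. Named genes are the members and Id4, for each ranked member the 6 highest and 3 lowest genes by mean rho with 1 sign in 4 of 4 libraries, in each list the 3 highest by level and those counted, and Cd27. Alternatives without the runs, with another draw (seed 2), within number sets and by partial correlation were added after seeing the data. The ranking was run on simulated data with independent noise, as a check of the code only.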

Additional observations from a re-analysis of the deposited data

Results flagged for a closer look

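Of 41 sets of 4 library values examined, 4 had 1 library far from the other 3 by Dixon's ratio with a critical value of 0.829, and chance gives about 1 such set in 20. Id3 stood at 12.8 CPM in library 1, far above the other libraries, from 3 cells. The Spearman correlation across cells between Id1 and Id2 was 0.32 in library 1, far above the other 3 libraries. The correlation of Klf6 with Hes1 was 0.55 in library 1, above the 0.40 to 0.42 of the others. The correlation of Nfkbiz with Id1 was 0.18 in library 2, the lowest, against 0.29 to 0.31 in the others.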

How the results depend on the processing

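With 1 group of 4 libraries and no contrast, precision is set by 64 to 72 thinned cells per library, and for Id1 and Id3 by a handful of cells. No paired analysis was possible because all libraries form 1 group. Levels, co-detection and pair rho moved by less than 1 SD between libraries under every alternative other than leaving out a library (other scalings, cell filters, draws, runs left out, number sets, partial correlation), as did shares except Hes1, at 46.1% unthinned. For pair rho, and for the level and share of Id3, that SD exceeds the value itself, so this says little. For the co-detection ratio of Hes1 and Id1 the SD was 0.91, so a ratio of 1, with no excess, would also have stayed within it. Mean rho of Hes1 and Id1 was 0.14 with deposited CPM and 0.09 by partial correlation, against 0.23 as reported, and that of Id1 and Id2 was -0.00044 with deposited CPM, against 0.03. The co-detection ratio of Hes1 and Id1 was 1.24 unthinned, against 1.72. Of 126 values recomputed this way, counts of genes included, 96 stayed within 1 SD or within 1.5 times the reported count. The 96 include the pair rho, Id3 and co-detection values, for which 1 SD is a wide limit.

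Counts of genes changed more. With a mean rho of 0.3 required, positive genes numbered 12 for Hes1 (8 of the immediate early list), 0 for Id1 (0 of the list) and 0 for Id2, and negative genes 0 for Hes1 and 0 for Id2. With partial correlation on the immediate early sum, positive genes numbered 7 for Hes1 (2 of the list), 6 for Id1 (0 of the list) and 5 for Id2, and negative genes 3 for Hes1. With CPM of the deposited counts, positive genes numbered 9 for Id1 (0 of the list) and 4 for Id2, and negative genes 3 for Hes1 and 0 for Id2. With another draw, 4 immediate early genes were counted with Id1, and negative genes numbered 2 for Hes1, 2 for Id1 and 0 for Id2. Within number sets, 5 immediate early genes were counted with Id1, positive genes numbered 4 for Id2, and negative genes 2 for Hes1 and 0 for Id2. Without the runs, positive genes numbered 4 for Id2 and negative genes 2 for Hes1. With genes in at least 10% of cells, positive genes numbered 5 for Id2. Counts for Id2 and negative counts are therefore too small to rest on.

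Leaving out each library in turn, which asks for the same sign in only 3 libraries, gave ranges. Levels were 310 to 392 CPM for Hes1, 56.6 to 92.7 for Id1, 33.1 to 36.7 for Id2 and 0.381 to 4.65 for Id3, the lowest without library 1. Shares were 34.1% to 40.5%, 7.71% to 12.2%, 11.03% to 14.1% and 1.04% to 2.43%. Co-detection ratios were 1.65 to 1.81 for Hes1 and Id1, 1.01 to 1.38 for Hes1 and Id2, and 0.455 to 2.01 for Id1 and Id2. Mean rho was 0.15 to 0.34, 0.04 to 0.15 and -0.06 to 0.08 for these pairs. Positive genes numbered 35 to 46 for Hes1 (46 without library 3), 26 to 50 for Id1 (50 without library 2) and 10 to 22 for Id2 (22 without library 1), negative genes 5 to 9, 1 to 6 and 0 to 4, and immediate early genes 13 to 16 with Hes1 and 5 to 11 with Id1 (5 without library 1). The cause was not tested, apart from the looser sign rule.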
